A study of Mus musculus with 14 samples.

Results

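A group of 6 mismatch repair genes was followed across the libraries of this series, namely Msh3, Msh6, Mlh3, Pms1, Pms2 and Exo1. They were chosen by function, as listed homologues of the bacterial MutS and MutL proteins together with the exonuclease gene Exo1, with earlier results of these data known. They are 6 of the 34049 genes with any count, and all 6 were among the 24592 genes that passed the expression filter. Each was also set against Mki67, the gene of a nuclear protein made by dividing cells, in the same library.

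RNA was sequenced from mouse hair follicle stem cells, the cells of the hair bulge that rest between growth phases and divide when a new hair cycle starts. The series title names IRX5, a homeobox transcription factor, with DNA damage repair and with activation of these cells. Ly-6A/E-, CD34+, CD45f+ cells (marker names as the labels spell them) were sorted from back skin at postnatal day 18 (P18) or postnatal day 20 (P20). The labels give 3 Irx5KO and 3 WT libraries at P18, and 4 Irx5KO and 4 WT libraries at P20. The labels used here describe neither the knockout allele nor the strain, and do not say which libraries share an animal, and p-values therefore cover only library-to-library spread, which may be partly technical. The table of the library labelled P18 WT 3 carries the word het in its name, which its label does not explain. Date codes in the table names put the libraries on 2 dates at each age, with both labelled genotypes on every date. At P18, Irx5KO 1, WT 1 and WT 2 have the earlier code, and Irx5KO 2, Irx5KO 3 and WT 3 the later one. At P20, libraries 1 and 2 of each genotype have the later code and libraries 3 and 4 the earlier one. The labels do not explain what the codes date.

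Mismatch repair removes wrongly paired bases and small loops that are left behind when DNA is copied. A MutS pair finds the fault. Msh6 and Msh3 are alternative members of that pair, the first for base mismatches and the shortest loops, the second for larger loops. A MutL pair then joins and directs a cut in the new strand. Pms2 holds the cutting site of the main MutL pair, Mlh3 that of a pair known best from meiotic crossing over, and Pms1 belongs to another pair whose role in mammals is less clear. Exo1 degrades the cut strand past the fault and also trims the ends of DNA double-strand breaks.

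Estimated counts summed to between 13618367 and 70083873 per library. The sorted cells carried the bulge markers, with the summed level of 8 markers between 4859 and 25402 CPM (counts over the TMM-scaled library size). The markers of blood (4 genes, 5.72 to 48.9 CPM in all) and of endothelium (3 genes, 3.83 to 54.0 CPM) were low, whereas 5 markers of epidermis outside the bulge summed to between 267 and 3937 CPM, the highest in the library labelled P20 Irx5KO 1. Ly6a, the gene of the antigen that the sort removed, was listed at 0 in 4 libraries and did not exceed 2.15 CPM. Genes of odorant and vomeronasal receptors, best known from the sensory neurons of the nose, made up 1.80% of P18 WT 1, 5.45% of P18 WT 2 and 2.41% of P20 WT 2 by count, and 0.102% to 0.611% of the other 11 libraries.

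Irx5 itself went against the labels on 1 of the P20 dates. Its P18 levels overlapped, with 53.3, 72.5 and 81.9 CPM for Irx5KO 1 to 3 and 80.0, 63.9 and 136 CPM for WT 1 to 3. At P20, libraries 1 and 2 labelled Irx5KO held 31.5 and 18.7 CPM, and those labelled WT held 126 and 73.8 CPM. Libraries 3 and 4 labelled Irx5KO held 195 and 182 CPM, and those labelled WT held 39.0 and 43.0 CPM. The difference of labelled Irx5KO minus labelled WT was -1.996 on the log2 scale in libraries 1 and 2 and 2.20 in libraries 3 and 4, and both passed (edgeR adjusted p = 0.0280 and 0.00300). Leaving out each library in turn ended the call in libraries 1 and 2 in 6 of 14 fits, those without P18 Irx5KO 3, P20 Irx5KO 1, P20 Irx5KO 2, P20 WT 1, P20 WT 3 or P20 WT 4. The differences then ran from -2.42 to -1.56 over the 14 fits, with an edgeR adjusted p of up to 0.833, and limma voom did not make this call either. The call in libraries 3 and 4 was lost in 1 of the 14 fits, without P20 WT 3 (edgeR adjusted p = 0.0828). The difference between the dates kept its call in each of the 14 fits, with values from 3.76 to 4.63. The order was thus reversed in libraries 3 and 4, and the labels are used below only as names of libraries. Counts over the whole gene do not show whether an altered transcript remains. Mki67 took the same order as Irx5 at P20. Its level in libraries 1 and 2 was 19.4 and 14.9 CPM for Irx5KO and 503 and 180 CPM for WT. Its level in libraries 3 and 4 was 1352 and 1515 CPM for Irx5KO and 12.3 and 4.30 CPM for WT. At P18 its 6 values lay between 15.6 and 30.7 CPM. Libraries labelled P20 Irx5KO 3, P20 Irx5KO 4, P20 WT 1 and P20 WT 2 were therefore the ones rich in a transcript of dividing cells. In bulk libraries a change in the number of such cells and a change in the RNA of each cell cannot be told apart.

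The promoter of Msh6 is shown as an example of a member's promoter. Its window holds a word of the kind that E2F factors, regulators of genes for DNA replication, are known to bind. The window spans 250 bases before to 50 bases after the annotated start, from RefSeq on GRCm38.p6, and lies at chr17:87974800-87975099 on the plus strand. Capitals mark a match to any of the words searched on both strands, which were TTTGGCGC, TTTCCCGC, TTTCGCGC and TTTGCCGC.
Msh6: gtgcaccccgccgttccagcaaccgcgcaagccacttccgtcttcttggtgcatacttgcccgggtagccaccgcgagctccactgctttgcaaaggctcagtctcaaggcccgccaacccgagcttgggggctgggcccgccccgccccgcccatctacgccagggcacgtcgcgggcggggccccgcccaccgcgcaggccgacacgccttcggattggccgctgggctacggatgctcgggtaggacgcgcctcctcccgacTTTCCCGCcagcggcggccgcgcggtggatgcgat
The match is TTTCCCGC and starts at position 16, just after the start site. Such a word was present in 744 of 32851 mouse promoter windows of this length, which is 2.26%. Of the other members, the Msh3 window held such words, those of Mlh3, Pms1 and Pms2 held none, and Exo1 had no window. The windows of Mki67 and Top2a, a gene of dividing cells, held none either. The motif CCAAT was found in the Msh6 window, on the other strand, and on either strand in 37.4% of all windows. These are matches of letters in a window and say nothing of binding, and no comparison between the members is drawn from them.

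Msh3 lies at chr13:92211872-92355003 on the minus strand of GRCm38. Pms1 (chr1:53189187-53297018, minus strand) starts 77 bases from Ormdl1, a regulator of sphingolipid synthesis that is read from the other strand, and Pms2 (chr5:143909964-143933968, plus strand) starts 117 bases from Aimp2, a scaffold of the tRNA synthetase complex that is also read from the other strand. Msh6 lies at chr17:87975062-87990892 on the plus strand and overlaps Fbxo11, Mlh3 lies at chr12:85234520-85270599 on the minus strand, and Exo1 lies at chr1:175880581-175913489 on the plus strand. Annotated genes overlap the other members too, among them the protein-coding Gm20379 opposite Msh3 and the antisense gene Gm28777 opposite Pms1. Rsph10b and Gm42421, both protein-coding, overlap Pms2 on the same strand. A strand setting is not stated, so reads of overlapping genes on opposite strands could not be told apart by strand.

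The MutS genes had the highest levels of the 6 members. On the deposited TPM scale, which corrects for transcript length, the median over the 14 libraries was 30.4 for Msh3, 27.3 for Msh6, 6.44 for Pms2, 4.14 for Pms1, 3.95 for Mlh3 and 0.952 for Exo1. Msh3 and Msh6, the MutS genes, were above the other 4 members in 14 of 14 libraries by TPM and also by counts per kilobase. Which of the pair was higher varied, since Msh6 led in 6 libraries by TPM and in 9 by counts per kilobase. Pms1, Pms2 and Mlh3 overlapped in level and changed order between the scales. Exo1 was the lowest member in 14 of 14 libraries by counts per kilobase but in 9 by TPM. These levels are sums over all transcripts of a gene. The coding share of the Msh3 counts ran from 0.194% in P20 Irx5KO 1 to 68.3% in P20 Irx5KO 3.

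Msh3 was the steadiest member by gene sum. It stood at 46.1, 45.1 and 43.7 CPM in the libraries labelled P18 Irx5KO 1 to 3 and at 38.6, 47.4 and 39.1 CPM in those labelled P18 WT 1 to 3. At P20 it stood at 46.3, 61.6, 33.4 and 56.6 CPM in Irx5KO 1 to 4 and at 48.6, 34.2, 45.5 and 47.5 CPM in WT 1 to 4. The groups overlapped at both ages, and its highest value was 1.84 times its lowest, while that ratio was 353 for Mki67. Its difference between the labelled genotypes was 0.38 ± 0.38 (log2, Irx5KO minus WT, ± SE, n = 2 against 2) in P20 libraries 1 and 2 and -0.05 ± 0.38 in libraries 3 and 4, with an edgeR adjusted p of 1 in both. The sign of the second value was not stable, since 7 other settings gave 0.030 to 0.19. Coding transcripts of Msh3 alone were not steady. They held 2.98 counts (0.194% of the gene) in P20 Irx5KO 1 and 633 counts (66.0%) in P20 Irx5KO 4.

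Msh6 varied more. It stood at 54.3, 44.2 and 57.6 CPM in the libraries labelled P18 Irx5KO 1 to 3 and at 38.6, 21.3 and 32.0 CPM in those labelled P18 WT 1 to 3. At P20 it stood at 52.0, 58.4, 128 and 70.5 CPM in Irx5KO 1 to 4 and at 102, 44.4, 57.1 and 67.2 CPM in WT 1 to 4. At P18 the libraries labelled Irx5KO were all above those labelled WT, and at P20 libraries 3 and 4 labelled Irx5KO were above libraries 3 and 4 labelled WT, but libraries 1 and 2 overlapped. The separation at P18 depended on the scaling. With unscaled library sizes P18 WT 1 stood at 49.1 CPM, above Irx5KO 1 (47.4) and Irx5KO 2 (43.8), and its TPM of 28.1 was above all 3 Irx5KO libraries (24.1 to 27.4). P18 WT 1 and P18 WT 2, rich in receptor counts, have TMM factors of 1.27 and 1.76. The P18 difference was 0.76 ± 0.41 on the log2 scale (n = 3 against 3, edgeR adjusted p = 0.825). Genes with a mean of at least 8 CPM differed by a median of 0.35 in the same comparison, and Msh6 stood 0.41 above that median. By date the Msh6 difference was 0.86 (earlier, Irx5KO 1 against WT 1 and 2) and 0.67 (later, Irx5KO 2 and 3 against WT 3). Each date thus has 1 library on 1 side. The medians of those genes were 0.71 and 0.037 on these dates, so Msh6 stood 0.15 and 0.63 above them. Within P20 its difference was -0.41 ± 0.44 in libraries 1 and 2 and 0.67 ± 0.45 in libraries 3 and 4, and neither passed (edgeR adjusted p = 1 and 0.519).

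Among the MutL genes no difference passed. Mlh3 stood at 16.1, 15.2 and 15.8 CPM in the libraries labelled P18 Irx5KO 1 to 3 and at 17.0, 17.8 and 25.3 CPM in those labelled P18 WT 1 to 3. Its P20 values were 10.3, 12.7, 21.9 and 25.5 CPM in Irx5KO 1 to 4 and 16.5, 18.1, 19.4 and 26.3 CPM in WT 1 to 4. The P18 groups did not overlap, with WT above, yet the difference of -0.41 ± 0.35 did not pass (edgeR adjusted p = 0.831). They also stayed apart by TPM (3.36 to 3.84 against 5.72 to 9.21). Retained intron models held 42.6% and 48.0% of the Mlh3 counts in P18 WT 1 and WT 2, and 1.81% to 22.7% in the other P18 libraries. Coding transcripts alone overlapped, with 394, 772 and 776 counts in P18 Irx5KO 1 to 3 and 422, 327 and 1019 in P18 WT 1 to 3. In P20 libraries 1 and 2 WT was again above by CPM, with a difference of -0.59 ± 0.39, and libraries 3 and 4 overlapped. By TPM libraries 1 and 2 overlapped too, with P20 Irx5KO 2 (3.27) above P20 WT 1 (2.94).

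Pms2 stood at 11.6, 5.53 and 9.41 CPM in the libraries labelled P18 Irx5KO 1 to 3 and at 14.05, 13.5 and 8.93 CPM in those labelled P18 WT 1 to 3. At P20 it stood at 11.4, 8.15, 13.6 and 21.6 CPM in Irx5KO 1 to 4 and at 9.28, 10.8, 11.1 and 14.5 CPM in WT 1 to 4. Its labelled genotypes overlapped at both ages. Pms1 stood at 8.26, 4.47 and 6.73 CPM in the libraries labelled P18 Irx5KO 1 to 3 and at 7.29, 10.3 and 6.56 CPM in those labelled P18 WT 1 to 3. Its P20 values were 11.6, 10.1, 22.1 and 10.6 CPM in Irx5KO 1 to 4 and 8.09, 5.67, 10.5 and 12.1 CPM in WT 1 to 4. The library labelled P20 Irx5KO 3 stood alone above the rest, and the labelled genotypes overlapped at both ages. Within P20 libraries 1 and 2 alone Irx5KO was above WT (0.65 ± 0.54, edgeR adjusted p = 1).

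Exo1 had the widest range of the members, with a highest CPM 12.1 times its lowest. It stood at 1.20, 4.37 and 3.24 CPM in the libraries labelled P18 Irx5KO 1 to 3 and at 3.79, 10.4 and 2.90 CPM in those labelled P18 WT 1 to 3. In P20 libraries 1 and 2 it stood at 2.54 and 2.46 CPM for Irx5KO and at 6.89 and 10.7 CPM for WT. In P20 libraries 3 and 4 it stood at 7.72 and 12.3 CPM for Irx5KO and at 1.01 and 1.59 CPM for WT. On either P20 date the libraries with more Mki67 held more Exo1, without overlap, so that the labelled genotypes took opposite orders on the 2 dates. In libraries 3 and 4 Exo1 rose by 2.95 ± 0.82 on the log2 scale (n = 2 against 2, edgeR adjusted p = 0.0431). In libraries 1 and 2 the difference of -1.81 ± 0.77 did not pass (edgeR adjusted p = 0.936, unadjusted p = 0.0290). The difference between these 2 differences was 4.76 ± 1.12 and passed (edgeR adjusted p = 0.0159).

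In libraries 3 and 4, 1 of the 6 members was called, beside 4.18% of all genes tested (1.58% higher). For the difference between dates it was again 1 of 6, beside 3.92% of all genes (1.88% in that direction). In libraries 1 and 2 no member was called, where 0.472% of all genes were. The call of Exo1 in libraries 3 and 4 sits at the threshold. Its adjusted p was 0.0547 with the median-ratio (RLE) size factors, 0.0557 with unscaled library sizes, 0.0626 with TMM scaling over genes of at least 8 CPM and 0.0541 without retained intron and processed transcript models, with a log2 difference between 3.05 and 3.17 in these. It was also lost without P18 WT 2 (0.0608), P18 WT 3 (0.0561), P18 Irx5KO 2 (0.0894), P18 Irx5KO 3 (0.0583), P20 Irx5KO 1 (0.0655), P20 Irx5KO 2 (0.0656), P20 Irx5KO 4 (0.115), P20 WT 3 (0.375) or P20 WT 4 (0.165), with differences from 2.57 to 3.30. The difference between dates lost its call without P20 Irx5KO 1 (0.0861), P20 Irx5KO 2 (0.0976), P20 WT 3 (0.125) or P20 WT 4 (0.0521).

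Few reads stand behind Exo1. Its counts were 104 and 209 in the libraries labelled P20 Irx5KO 3 and 4 and 26 and 23 in those labelled P20 WT 3 and 4. The mean level of 1973 odorant and vomeronasal receptor genes, taken over the same length as Exo1, was 26.8, 27.0, 43.3 and 23.8 counts in these libraries. Exo1 was thus above that level in the pair labelled Irx5KO and below it in the pair labelled WT. Over all libraries Exo1 was below this mean level in 11 of 14. Among them was the library labelled P18 WT 2, where 369 Exo1 counts met a mean receptor level of 1463. Msh3 was below the mean level in 0 libraries, Msh6 and Mlh3 in 1 each, Pms1 in 3 and Pms2 in 4. The median receptor gene was lower than the mean. Per kilobase Exo1 was above that median in every library, with 47.3 against 28.4 counts in P18 WT 2 and 3.34 against 0 in P20 WT 3. The part of the receptor level in the Exo1 values was not tested. Of the markers of other cells, fibroblast genes summed to 327 and 309 CPM in the libraries labelled P20 Irx5KO 3 and 4 and to 369 and 234 CPM in those labelled WT 3 and 4, and epidermal genes to 776 and 698 CPM against 1078 and 271 CPM. These ranges overlapped, as did those of endothelium. The other marker sums were lower in the pair labelled Irx5KO without overlap. Bulge markers stood at 13761 and 15016 CPM against 18850 and 25402 CPM, and 4 melanocyte markers at 82.6 and 85.7 CPM against 287 and 291 CPM. The 4 markers of hair matrix and germ stood at 254 and 171 CPM against 376 and 353 CPM, and the blood markers at 10.1 and 5.72 CPM against 21.1 and 12.2 CPM. Single markers did not all follow their sums. Dct (11.7 and 10.7 against 5.89 and 3.19 CPM) and Itgam (2.45 and 2.36 against 1.13 and 0.901 CPM) were higher in the pair labelled Irx5KO. Tcf4, Nfatc1, Lhx2, Ptprc, Cd3e, Shh and Tyrp1 overlapped. Most of the melanocyte sum was Mitf (69.8 and 73.4 against 278 and 284 CPM), and most of the bulge sum was Krt15. Over all 14 libraries, Tyrp1 was at 0 in 3, and Cd3e and Shh in 1 each, while the other markers of these 4 lists were detected in every library. Their part in the Exo1 result was not tested. The epidermal sum in libraries 1 and 2 was 3937 and 772 CPM for Irx5KO and 1370 and 627 CPM for WT.

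**Figure D1:**
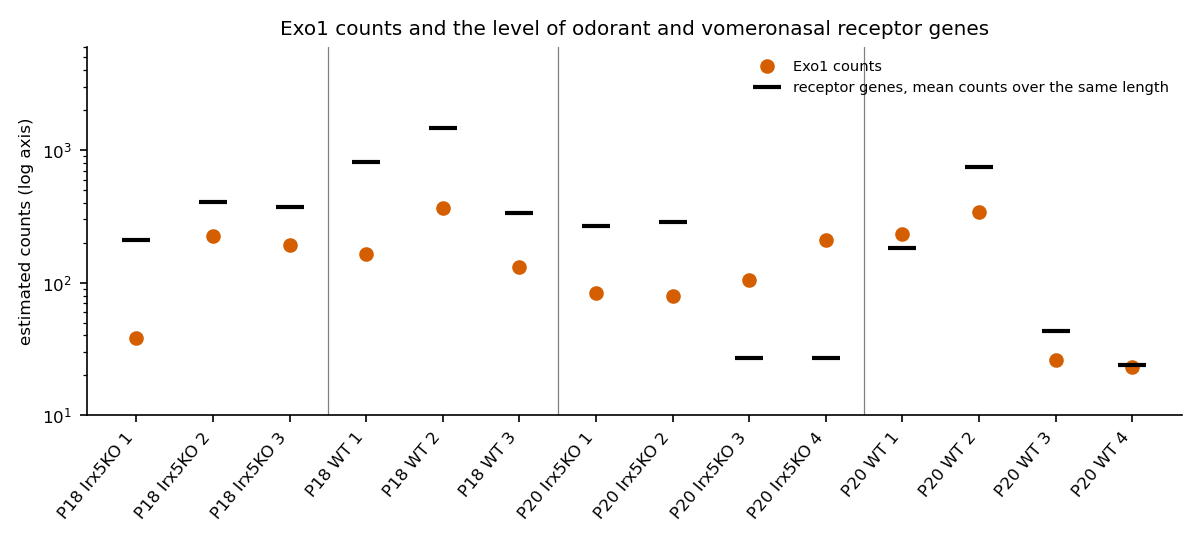
Estimated Exo1 counts (points) are set beside the mean counts of 1973 receptor genes over the same length (bars) for each library (x axis), on a log axis. Exo1 is above this mean receptor level in the libraries labelled P20 Irx5KO 3, P20 Irx5KO 4 and P20 WT 1, with 104, 209 and 231 counts.

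The share of Exo1 counts in each transcript varied too. The 7796-base protein-coding transcript held 79.3% of the Exo1 counts summed over all libraries. Other Exo1 transcripts held 58.6% in the library labelled P20 Irx5KO 3, 28.4% in P20 Irx5KO 4, 56.4% in P20 WT 1 and 54.1% in P18 Irx5KO 2, and between 0% and 14.6% in the other 10. For the 7796-base transcript alone the counts were 43.0 and 150 in the libraries labelled P20 Irx5KO 3 and 4 against 26.1 and 19.9 in those labelled WT 3 and 4. The order of these labelled pairs was therefore kept for this transcript, from smaller counts. In libraries 1 and 2 its counts were 83.8 and 70.5 for Irx5KO against 101 and 292 for WT. P20 WT 1 thus lay close to the pair labelled Irx5KO, unlike its gene sum of 231 counts against 84 and 80. Its 101 counts are also below the mean receptor level of 183 in that library.

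**Figure D2:**
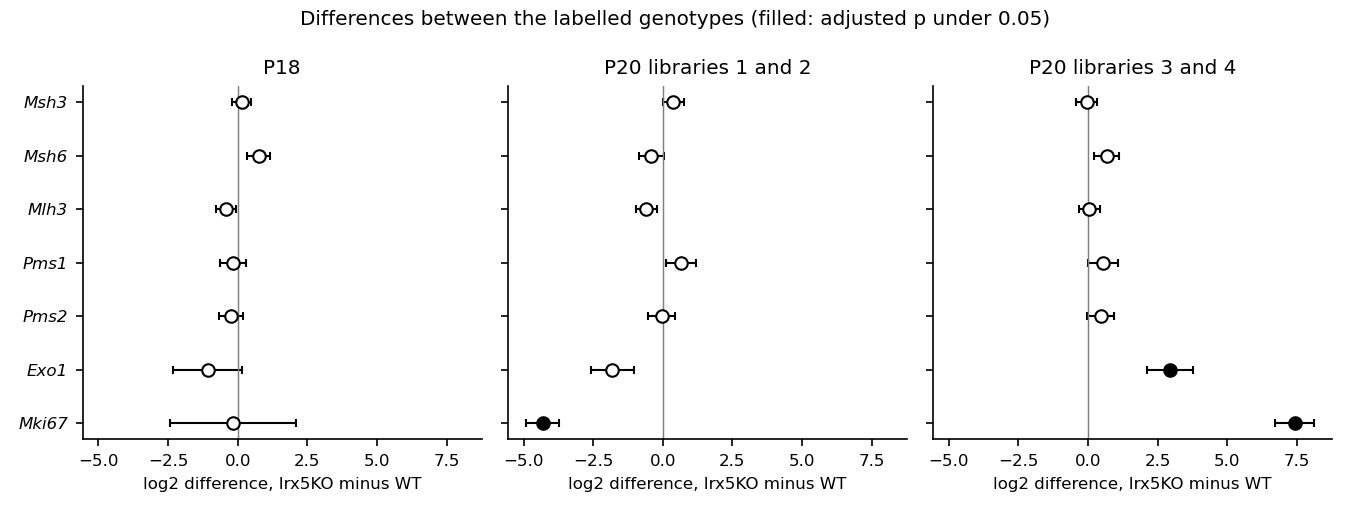
Log2 differences of labelled Irx5KO minus labelled WT (x axis, the same in every panel) are shown with their SE for the 6 members and Mki67, at P18 and for the 2 dates of P20, with filled points where the edgeR adjusted p is under 0.05. Mki67 lies at -4.32 in libraries 1 and 2 and at 7.42 in libraries 3 and 4, Exo1 at -1.81 and 2.95, and the other members within -0.59 to 0.67 on these 2 dates.

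Pooled over the dates, no member passed. At P18 the member differences ran from -1.07 ± 1.24 for Exo1 to 0.76 for Msh6. Within the P18 dates Exo1 had opposite signs, but on each date 1 of the labelled genotypes has only 1 library. The difference was -2.56 on the earlier date (Irx5KO 1 against WT 1 and WT 2, the P18 libraries rich in receptor counts). It was 0.39 on the later date (Irx5KO 2 and 3 against WT 3), and neither value has replicates on both sides. At this age edgeR called 0 of 24592 genes (0%), of which 1195 had an unadjusted p under 0.05. With both P20 dates together edgeR again called 0% of genes, and 1004 had an unadjusted p under 0.05. Exo1 there differed by 0.53 ± 1.04. DESeq2 called 23 genes at P18 and 104 at P20 in the same comparisons, and no member among them.

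Between the ages no member passed either. Msh6 stood at 21.3 to 38.6 CPM in the libraries labelled P18 WT and at 44.4 to 102 CPM in those labelled P20 WT, without overlap, a difference of 1.15 ± 0.38 (P20 minus P18, n = 4 against 3, edgeR adjusted p = 0.311). With unscaled library sizes the groups overlapped, with P18 WT 1 (49.1 CPM) above P20 WT 3 (45.8 CPM), and they overlapped by TPM, with P18 WT 1 (28.1) above P20 WT 3 (22.4). In that comparison genes of at least 8 CPM differed by a median of 0.42, which leaves Msh6 0.73 above the median, and edgeR called 0% of all genes, 2499 of them having an unadjusted p under 0.05. With limma voom and sample quality weights Msh6 did pass (0.79, adjusted p = 0.00185), in a setting that called 16167 genes, and with DESeq2, which called 677 genes, it did not. Pms1 stood at 4.47 to 8.26 CPM in the libraries labelled P18 Irx5KO and at 10.1 to 22.1 CPM in those labelled P20 Irx5KO, again without overlap (1.06 ± 0.49, edgeR adjusted p = 0.411), where 0.411% of all genes passed. With unscaled library sizes these groups stayed apart (4.42 to 7.22 against 9.24 to 22.3 CPM). By TPM they overlapped, with P20 Irx5KO 4 (3.72) below P18 Irx5KO 1 (4.08). Each age has its own dates, so age and date cannot be told apart.

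Set against Mki67, the members differed by the whole span of the proliferation gene. In the libraries labelled P20 Irx5KO 3 and 4, the counts per 100 Mki67 counts were 2.47 and 3.73 for Msh3 and 9.46 and 4.65 for Msh6. In those labelled P20 WT 3 and 4 they were 369 and 1105 for Msh3 and 463 and 1565 for Msh6. In the libraries labelled P20 Irx5KO 1 and 2 they were 239 and 414 for Msh3 and 268 and 393 for Msh6, and in those labelled WT 1 and 2 they were 9.67 and 19.0 for Msh3 and 20.4 and 24.7 for Msh6. The ratios were thus lower in the libraries rich in Mki67 on both dates, without overlap. The Mki67 counts both mark these libraries and divide the ratios, so this order is no separate result about the members. Mki67 CPM alone spans a factor of 353. The ratios compare counts of genes of different length. Per length, by TPM, Msh3 stood at 15.7 and 23.7 and Msh6 at 45.0 and 33.9 per 100 of Mki67 in the libraries labelled P20 Irx5KO 3 and 4. In those labelled P20 WT 1 and 2 Msh3 stood at 57.1 and 125 and Msh6 at 97.5 and 132, so on that scale both genes exceeded Mki67 in P20 WT 2. Over all 14 libraries the highest ratio was 447 times the lowest for Msh3, 336 for Msh6, 378 for Mlh3, 403 for Pms1 and 335 for Pms2. For Exo1 that factor was 85.8, from 0.571 per 100 in the library labelled P20 Irx5KO 3 to 49.0 per 100 in that labelled P18 WT 2.

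**Figure D3:**
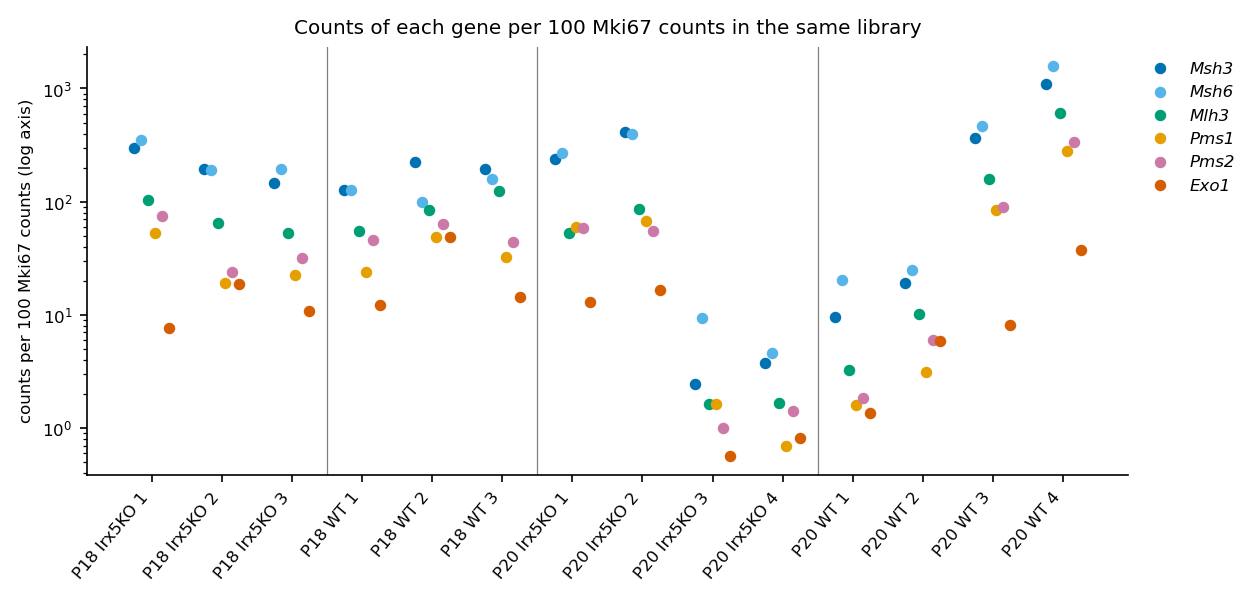
Counts of each member per 100 Mki67 counts in the same library (y axis, log) are shown for the 14 libraries (x axis), with 1 colour per gene. The 4 libraries rich in Mki67 lie lowest, with Msh3 at 2.47, 3.73, 9.67 and 19.0 per 100, and P20 WT 4 lies highest for every member except Exo1, which is highest in P18 WT 2 (49.0 per 100).

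Tested relative to Mki67 with limma, 5 of 6 members changed by another amount than Mki67 in P20 libraries 1 and 2 and 6 of 6 in libraries 3 and 4. The background was as wide, at 76.7% and 99.6% of all genes, so these counts do not set the members apart, and each test carries the error of the same Mki67 values. In libraries 3 and 4 the members other than Exo1 moved by -6.99 to -7.70 relative to Mki67, beside a median of -7.72 over all genes. Exo1 moved by -4.73 ± 1.18 (limma adjusted p = 6.77e-05). It rose, but by less than Mki67. In libraries 1 and 2 Exo1 differed from Mki67 by 2.39 ± 1.18 and did not pass (limma adjusted p = 0.0557), and it passed with Top2a, another gene of dividing cells, in place of Mki67 (2.74, adjusted p = 0.0144).

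Other genes that work with the members, or copy DNA, give a measure of what moved on these dates. The list of the clamp Pcna, its loader, the single-strand binding protein RPA, DNA polymerase delta and ligase I has 14 genes. In libraries 3 and 4, where 1.58% of all genes were called higher, 3 of the 14 rose. They were the ligase gene Lig1 (2.10, edgeR adjusted p = 0.00228), the polymerase gene Pold1 (2.28, adjusted p = 0.00247) and Rpa1 (1.35, adjusted p = 0.0427). The list median was 1.17, beside -0.02 over all genes. Of 3 nucleases related to Exo1, Fen1, which trims flaps of the lagging strand, rose (2.71, edgeR adjusted p = 0.000696). Of the 6 genes of the replicative helicase, Mcm2 to Mcm7, 5 rose, led by Mcm5 (5.02) and Mcm3 (4.38), with a median of 2.83. The 8 mitotic genes had a median of 6.74, and 7 of them rose. The 6 members had a median of 0.50.

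Of 16 base excision repair genes 2 rose in libraries 3 and 4, where 1.58% of all genes were called higher, Neil3 (3.78, edgeR adjusted p = 0.000428), a glycosylase known from dividing cells, and Tdg (1.51, adjusted p = 0.0409), the thymine glycosylase. None of 4 accessory mismatch repair genes and neither of the meiotic MutS genes Msh4 and Msh5 passed. In the difference between the dates 1.88% of all genes were called higher. Fen1, Neil3, Lig1, Pold1, Rpa1, 5 of the Mcm genes and 7 of the mitotic genes were among them, and Tdg was not (edgeR adjusted p = 0.0550). In libraries 1 and 2, 3 of the 6 Mcm genes and 4 of the 8 mitotic genes fell, with medians of -1.94 and -3.29, beside -0.19 and 0.411% called lower over all genes, and no gene of the other lists passed. Without 1 library the count for the clamp, ligase and polymerase list in libraries 3 and 4 lay between 1 and 4, and 3 to 6 Mcm genes passed. In libraries 1 and 2 the count lay between 1 and 5 for the Mcm genes and between 2 and 6 for the mitotic genes. Lig1 lost its call without P20 WT 4 (adjusted p = 0.0557) and Pold1 without P20 WT 3 (0.0783), and Rpa1 and Tdg lost theirs in 7 and 6 of 14 such fits.

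**Figure D4:**
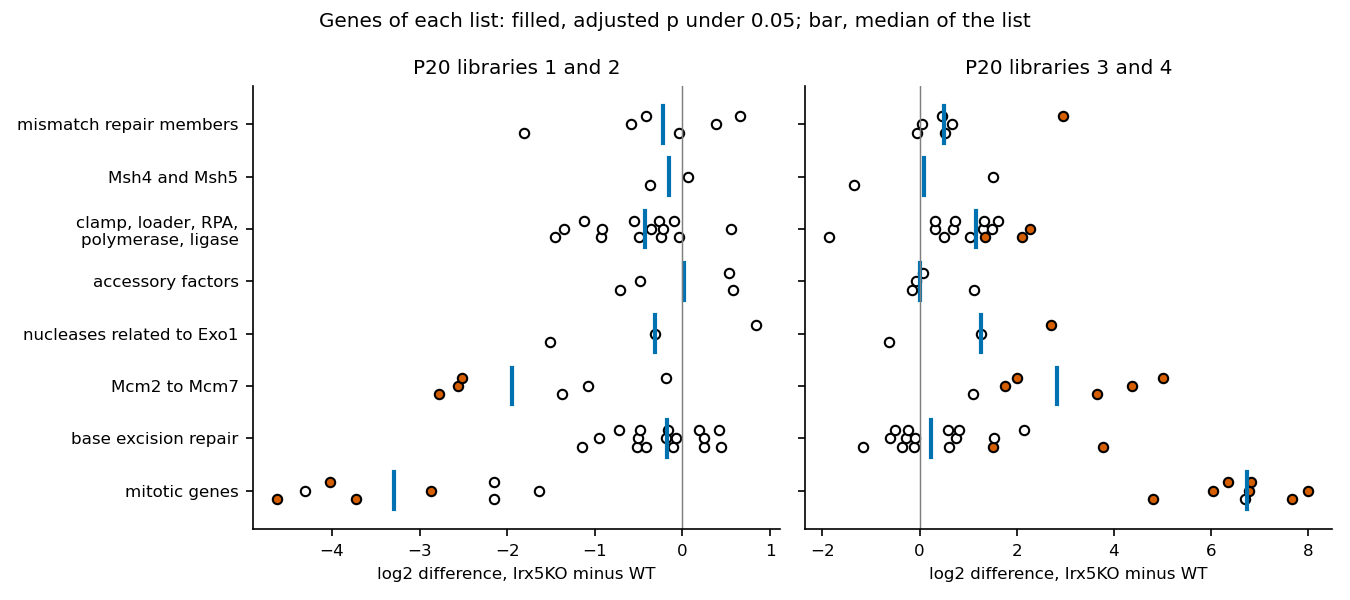
Each point is the log2 difference of labelled Irx5KO minus labelled WT (x axis) of 1 gene, by gene list (y axis), for the 2 dates of P20, each with an axis of its own, filled where the edgeR adjusted p is under 0.05, with the list median as a bar. In libraries 3 and 4 the mismatch repair members have a median of 0.50, the Mcm genes 2.83 and the mitotic genes 6.74.

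The genes nearest to each member in pattern were found over the 14 libraries and 12199 genes, by the root mean square difference of mean-centred log2 CPM. For Exo1 they were Dscc1 (0.38), which loads the clamp for sister chromatid cohesion, Mad2l1 (0.40) of the spindle checkpoint and Ercc6l (0.45), a helicase of mitotic chromosomes. Exo1 itself lay 1.86 from Mki67. Msh3 lay nearest to Smg9 (0.19), Jmjd4 and Polr3f, Msh6 to Prkch (0.18), Cdc27 and Map2k2, and Mlh3 to Faim (0.21), Hikeshi and Cdc23. Pms1 lay nearest to Cep97 (0.28), Grk5 and Ino80e, and Pms2 to Vps45 (0.25), Tmem80 and Fam69b. These 5 members lay 2.27 to 2.60 from Mki67. The SD of log2 CPM was 2.64 for Mki67 and 0.244 (Msh3) to 0.647 (Msh6) for the 5 members. Any gene with little change lies about as far from Mki67, and near to other such genes.

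The share of each transcript type varied among members and libraries. Msh6 was the simplest, with 89.2% of its counts in 1 coding transcript. A 1818-base transcript annotated as a target of nonsense-mediated decay held 32.5% of the Msh3 counts. Transcripts of that type held 19.3% to 38.5% of the Msh3 counts in P20 libraries 3 and 4 and 32.0% to 80.5% in the other 10, while coding transcripts held 48.5% to 68.3% there and 0.194% to 40.9% in the others. Of the Pms2 counts 24.4% were in a non-coding processed transcript and 18.8% in a retained intron model. Coding transcripts held between 0% (P18 Irx5KO 2) and 40.0% (P20 WT 1) of the Pms2 counts of a library. The counting tool shares reads among such overlapping transcripts by a model, so these shares are less certain than gene sums.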

How the data were processed

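Single-end RNA-seq of the sorted cells was, per the labels' protocols, quantified by transcript using kallisto 0.46.2. Further names in the submitters' processing notes are mm10 and DESeq2. Which transcript set was used is not given in the sources used here. Per library, the authors deposited 1 table with an estimated count (expected count) and a TPM value for each of 118489 transcripts, per the file headers. No column belonged to another series (0).

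By identifier, 116816 transcripts were matched to genes of the GENCODE annotation of GRCm38, and 1673, with 1.19% to 2.59% of the counts, were left out. Estimated counts were summed per gene and rounded to whole numbers. The lowest chi-square per degree of freedom among 18 pairs of libraries of 1 group was 61.2, so none was counted as a repeat of another.

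The count model was edgeR 4.0.16 under R 4.3.3 (TMM scaling, default filter by group, robust quasi-likelihood tests, 14 libraries). The pooled genotype comparisons had the date within age as a term, those within a date used 1 coefficient for every date and genotype, and those between ages had no date term. Differences are log2 values, and their SE, which is approximate, is the absolute difference divided by the root of F. P-values were adjusted by Benjamini-Hochberg across the whole table, with a threshold of 0.05. CPM values use TMM library sizes. For the test relative to Mki67, log2 CPM with a prior count of 2 minus that of Mki67 was fitted with limma 3.58.1. The scripts were tested on simulated data.

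The members, lists and tests were chosen with earlier results of these data known. The text names the members, Mki67 and Irx5, and up to 4 genes per list with the smallest p in a comparison. It also names protein-coding genes with a start within 1000 bases of a member's on the other strand, some genes that overlap a member, and the 3 genes nearest to a member in pattern. Of the transcripts with at least 10% of a member's counts, only some are described. A gene that this rule would also name is not reported here. The alternatives were other scalings, filters and prior counts, DESeq2 1.42.0, limma voom, no date term, a replicate block, fits of 1 age, Top2a in place of Mki67, TPM ratios, and leaving out each library or the 3 libraries richest in receptor counts. Gene sums without retained intron and processed transcript models were added after seeing the data. RefSeq promoter windows were found for 5 of the 6 members.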

Additional observations from a re-analysis of the deposited data

Results flagged for a closer look

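Within P20, the Exo1 difference had opposite signs on the 2 dates, and the difference between them was tested: the difference of labelled Irx5KO minus labelled WT was 4.76 higher on the log2 scale in libraries 3 and 4 than in libraries 1 and 2 (SE 1.12, edgeR adjusted p = 0.0159, higher in 2 of 2 against 2 of 2 libraries on the earlier date and lower in 2 of 2 against 2 of 2 on the later one). Pms1 stood at 22.1 CPM in the library labelled P20 Irx5KO 3, farther from the other 3 libraries of its group (10.1 to 11.6 CPM) than Dixon's 95% limit for 4 values allows. Of 12 groups of 4 values examined this was the only 1, and chance flags about 1 group in 20.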

How the results depend on the processing

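The count of members called in P20 libraries 3 and 4 was 1 in the fit reported and 0 with RLE size factors, unscaled library sizes, TMM over genes of at least 8 CPM and sums without retained intron and processed transcript models, and 0 to 1 when each library was left out in turn. For the difference between the P20 dates it was 1, became 2 (Msh6 and Exo1) without the 3 libraries richest in receptor counts, and was 0 to 1 with libraries left out in turn. For P20 against P18 in WT it was 0, and 1 with limma voom. Counts relative to Mki67 were 5 to 6 and 6 in all settings run. Of 42 member differences 19 changed sign in some setting, and none was called with the changed sign. Sign changes in the reported differences were as follows. Without the receptor-rich libraries Exo1 was 0.36 at P18 and 0.0076 between ages in WT, and Pms2 was 0.21 in P20 libraries 1 and 2. In libraries 3 and 4 Msh3 was 0.087 with RLE, 0.19 unscaled, 0.064 with TMM over genes of at least 8 CPM, 0.030 unfiltered, 0.042 without the receptor-rich libraries, 0.15 without retained intron and processed models and 0.087 with DESeq2. In the difference between dates Msh3 was 0.045 unscaled, and Pms1 was 0.10 with RLE, 0.38 unscaled, 0.077 with TMM over genes of at least 8 CPM, 0.10 unfiltered, 0.063 without the receptor-rich libraries and 0.10 with DESeq2. With each library left out in turn the ranges were -3.21 to 0.39 for Exo1 at P18, -0.16 to 0.53 for Msh6 and -0.52 to 1.56 for Exo1 at P20, -0.83 to 0.31 for Msh6 and -0.30 to 0.18 for Pms2 in libraries 1 and 2, -0.48 to 0.29 for Msh3, -0.15 to 0.29 for Mlh3 and -0.088 to 0.96 for Pms1 in libraries 3 and 4, -0.73 to 0.33 for Pms1 in the difference between dates, and -1.08 to 0.56 for Exo1 between ages in WT. The cause was not tested. Over all genes the counts called ranged, over other settings and over libraries left out in turn, from 11 to 665 and 15 to 393 in libraries 1 and 2 (116 reported), from 954 to 2613 and 415 to 1845 in libraries 3 and 4 (1028), from 683 to 2404 and 510 to 1742 between dates (965), from 126 to 1391 and 28 to 322 between ages in Irx5KO (101), from 0 to 16167 and 0 to 220 in WT (0), from 0 to 117 and 0 to 1 at P18 (0) and from 0 to 226 at P20 (0).

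The libraries were not treated as paired by replicate number, since not every same-numbered pair had deviations that correlated by over 0.1: the values were 0.16, 0.08 and 0.09 at P18, 0.01 to 0.39 at P20, 0.09, 0.75 and 0.48 between ages in WT and at most 0.02 in Irx5KO. As a hint of pairing from the data alone, 6 of 6 libraries at P18 and 5 of 8 at P20 correlated best with their own number. With a replicate block the number of members called was 0 in the pooled comparisons of P18, P20 and the 2 ages, and Msh6 at P18 was 0.80 (edgeR adjusted p = 0.502). Depth limits Exo1 above all, with 23 to 369 counts per library.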
